A study of Mus musculus with 20 samples.

Results

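The genes described here are 43 imprinted genes measured in the hippocampus of adult mice whose mothers had inhaled urban particulate matter during pregnancy. A list of 45 imprinted genes was matched to the gene symbols of the deposited annotation, and a gene was kept when its counts summed to 50 or more over the 20 libraries. Of 48709 annotated genes, 43 met this rule. Snurf and Phlda2 were listed but had 0 counts in every library, which allows up to 3 counts in each. Snurf lies within Snrpn on the same strand, and how reads under both genes were assigned was not given in the sources used here.

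The C57BL/6 offspring formed 4 groups of 5 by sex and by what their mothers had breathed, nPM or filtered air. nPM is nanosized particulate matter of city air. From gestational day 2 until birth, dams of the nPM groups breathed it on 3 days of each week, for 5 h each time. Dams of the control groups breathed filtered air in parallel. The labels give the dose as 300 mg/m3, whereas the methods of the study give the same figure in micrograms. No offspring was exposed after birth, and no transgene or mutation was involved. The strain is inbred, so the maternal and the paternal copy of a gene could not be told apart in these counts, and loss of imprinting was not measured. Females were 17.71 to 18.29 weeks old and males 18.57 to 19.14 weeks. Male offspring of the study also received EdU, a thymidine analogue, so sex, age and this injection cannot be told apart. The offspring came from 5 litters per exposure group and the labels do not tie samples to litters. Some samples of a group may share a mother, and the p-values measure only the spread between these samples.

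An imprinted gene is transcribed mainly from the copy inherited from 1 parent. The silent copy is set by DNA methylation laid down in the egg or the sperm and kept through the divisions of the embryo. Imprinted genes lie in clusters that share a control region, and many clusters pair a coding gene with a long noncoding RNA from the other parental copy. They are best known for growth of the fetus and placenta, and in the brain for feeding, maternal care and the Prader-Willi and Angelman syndromes. The exposure covered the weeks in which the methylation of imprints must be kept, which gives the comparison of adult levels its interest. Of the 40 members tested below, 22 are known mainly for paternal expression and 8 for maternal expression. The other 10 have isoform- or tissue-dependent imprinting.

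Promoter sequence was printed for 4 members on which the results turn, as the stretch of 250 bases upstream of a RefSeq start (GRCm38.p6, the build of mm10, + strand, 5′ to 3′). Capitals mark CpG, the dinucleotide that carries the methylation. Magel2 and Ndn are neighbors, and Magel2 was the member with the lowest p in females while Ndn passed only with both sexes together. Mest passed the test in males. Usp29 passed in females and starts 147 bases from Peg3, on the opposite strand.
Magel2, chr7:62376729-62376978: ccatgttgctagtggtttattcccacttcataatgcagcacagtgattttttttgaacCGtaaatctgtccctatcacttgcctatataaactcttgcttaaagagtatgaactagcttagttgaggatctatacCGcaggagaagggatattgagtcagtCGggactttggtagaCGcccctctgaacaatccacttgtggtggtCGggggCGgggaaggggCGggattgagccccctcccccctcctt
Ndn, chr7:62348027-62348276: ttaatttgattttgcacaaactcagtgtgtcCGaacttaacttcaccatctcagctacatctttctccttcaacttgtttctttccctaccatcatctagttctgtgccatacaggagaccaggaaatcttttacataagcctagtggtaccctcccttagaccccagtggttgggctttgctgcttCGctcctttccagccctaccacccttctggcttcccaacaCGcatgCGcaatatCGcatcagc
Mest, chr6:30737800-30738049: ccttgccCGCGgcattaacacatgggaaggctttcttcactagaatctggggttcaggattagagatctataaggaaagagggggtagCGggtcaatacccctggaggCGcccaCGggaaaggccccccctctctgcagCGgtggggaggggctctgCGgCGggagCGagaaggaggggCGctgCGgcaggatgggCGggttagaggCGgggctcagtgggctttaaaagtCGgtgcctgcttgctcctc
Usp29, chr7:6730333-6730582: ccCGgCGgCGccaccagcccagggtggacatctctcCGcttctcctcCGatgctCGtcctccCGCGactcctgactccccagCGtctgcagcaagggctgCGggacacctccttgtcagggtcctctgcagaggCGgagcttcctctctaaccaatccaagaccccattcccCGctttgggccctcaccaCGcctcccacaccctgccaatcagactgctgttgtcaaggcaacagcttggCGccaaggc
The stretches of Magel2 and Ndn held 7 and 5 CpG, and those of Mest and Usp29 held 14 each. The Mest stretch, from 1 of 3 RefSeq windows of the gene, contained GCGGCA 2 times, the reverse complement of TGCCGC. These letters are the ones that ZFP57, a zinc finger protein that keeps imprints, reads when their CpG is methylated. In the full RefSeq windows of 300 bases (250 before and 50 after a start), 35 members had 53 windows, and either strand of TGCCGC was found in 14 of them (26.4%), from 13 members. Among all 32851 windows the share was 11.6%. The median number of CpG per window was 15 for members and 7 for all genes. No methylation was measured, and a match of letters is only a description.

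Each library held 19092067 to 38663408 counts, with TMM factors of 0.958 to 1.06. Defining genes of the hippocampal fields were present in all 20 libraries. Prox1, which marks dentate granule cells, ranged from 63.5 to 150.4 CPM, the count of a gene scaled to a library of fixed size (TMM), and Wfs1 of CA1 from 45.9 to 139 CPM. Tissue beside the hippocampus was carried along unevenly. The summed level of 10 choroid plexus genes, led by Ttr, ran from 35.3 to 8374 CPM, and 8 libraries lay above 600 CPM: control males 2, 4 and 5, nPM females 1 and 5, and nPM males 2, 3 and 5. nPM female 1 also had the highest level of the striatal list (270.7 CPM, against 35.1 to 103 in the others). nPM male 4 had the highest level of the hypothalamic list (30.6 CPM, against 0.668 to 2.06), of which Trh alone made 29.5 CPM. Sim1 of that list was also highest in nPM male 4, at 0.387 CPM. Hcrt and Agrp were at 0 there, as Hcrt was in 9 of the 20 libraries and Agrp in 5. Malat1, a nuclear RNA, was at 16518 to 25940 CPM in females and at 9831 to 15518 CPM in males, without overlap. In bulk tissue, fewer cells of a type and less RNA per cell cannot be told apart.

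Levels of the 43 members covered more than 3 orders of magnitude (the plot of levels per length). Values were compared between genes only as CPM per kilobase of exon, averaged over the 20 libraries. Snrpn, which encodes the neuronal splicing protein SmN, was highest at 134. It was followed by Nap1l5, a nucleosome assembly protein, at 111, Impact, an inhibitor of the kinase GCN2, at 87.6, and the noncoding RNA Meg3 at 73.9. The G protein subunit gene Gnas (54.3), the noncoding RNA Peg13 (46.4) and the Ras exchange factor Rasgrf1 (43.3) came next. The lowest were H19 at 0.0870, Rtl1 at 0.0786 and the calcitonin receptor gene Calcr at 0.0474. Dio3, H19 and Calcr summed to 289, 133 and 120 counts and did not pass the filter on low counts, so 40 members were tested.

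**Figure D1:**
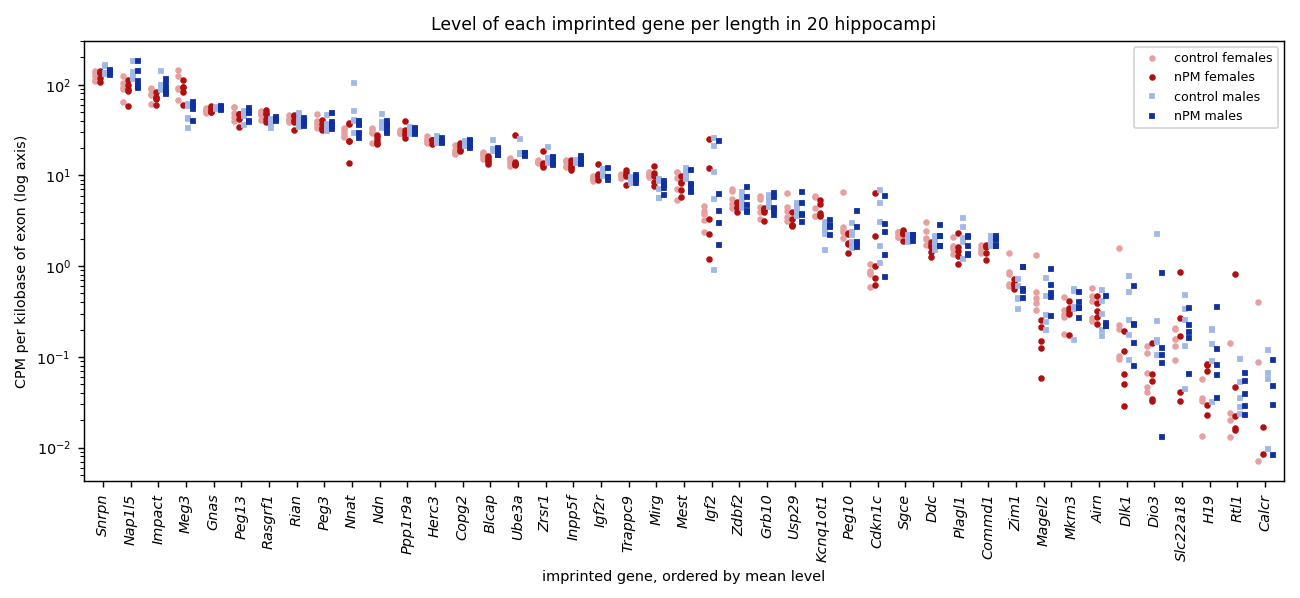
CPM per kilobase of exon of each of the 43 imprinted genes (log axis) in the 20 libraries, 1 point per library, colored by group and ordered by the mean. Libraries with 0 counts (of H19, Rtl1 and Calcr) are not drawn. Snrpn is highest with a mean of 134 and Calcr lowest with 0.0474, and Igf2 and Cdkn1c are spread far more widely than genes of like level.

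Spread among animals was ordinary for the set as a whole. The SD of log2 CPM within groups had a median of 0.267 over the 40 members and of 0.256 over all 19797 genes tested, and 21 members lay above the latter. Gnas was the most even member, at 551 to 625 CPM in control females and 595 to 653 CPM in nPM males. The least even tested members were Rtl1, with a within-group SD of 1.58 on the log2 scale, and Igf2, with 1.52. Igf2, of moderate level, had a 28.7-fold range over the 20 libraries.

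Of the 40 members, 0 passed p under 0.005 and 2 passed p under 0.05 with both sexes together and sex as a covariate (limma). Among all genes tested 0.141% passed p under 0.005 and 2.1% passed p under 0.05, of which 1.11% were lower. Both of those members, Blcap and Ndn, were lower after nPM. In males 0 and 1 members passed, Mest being lower, where the shares of all genes were 0.207% and 4.28% (1.84% lower). In females 1 and 6 passed, all 6 lower (Magel2, Ddc, Usp29, Zdbf2, Peg10 and Blcap), where the shares of all genes were 0.0909% and 1.99% (1.02% lower). The interaction of sex and nPM, which asks whether the nPM difference in males departs from that in females, was passed by 1 and 4 members, where the shares of all genes were 0.217% and 3.79%. Magel2, Ddc and Zim1 had the higher difference in males (2.27% of all genes) and Igf2r the lower (1.52%). No member reached a Benjamini-Hochberg adjusted p under 0.05 in any of these 4 comparisons by limma, nor did any other gene. The lowest adjusted p of a member was 0.963, shared by several members in males. The both-sex, male and female comparisons share the same libraries, so their values below stand side by side and are not independent.

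The sign of the difference, whatever its p, was negative for 27 members of 40 with both sexes (53.0% of all genes), for 23 in males (50.4% of all genes) and for 26 in females (48.8% of all genes). Median log2 fold changes of the members were -0.04, -0.03 and -0.08, and those of all genes -0.01, 0.00 and 0.00. Of the 22 members known for paternal expression, 17 had a negative sign with both sexes and 17 in females, with medians of -0.14 and -0.13. Of the 8 known for maternal expression, 4 were negative in each, with medians of 0.00 and 0.04. In males the sign was negative for 14 of the 22 (median -0.09) and for 5 of the 8 (median -0.07). These counts are descriptions and were not tested.

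**Figure D2:**
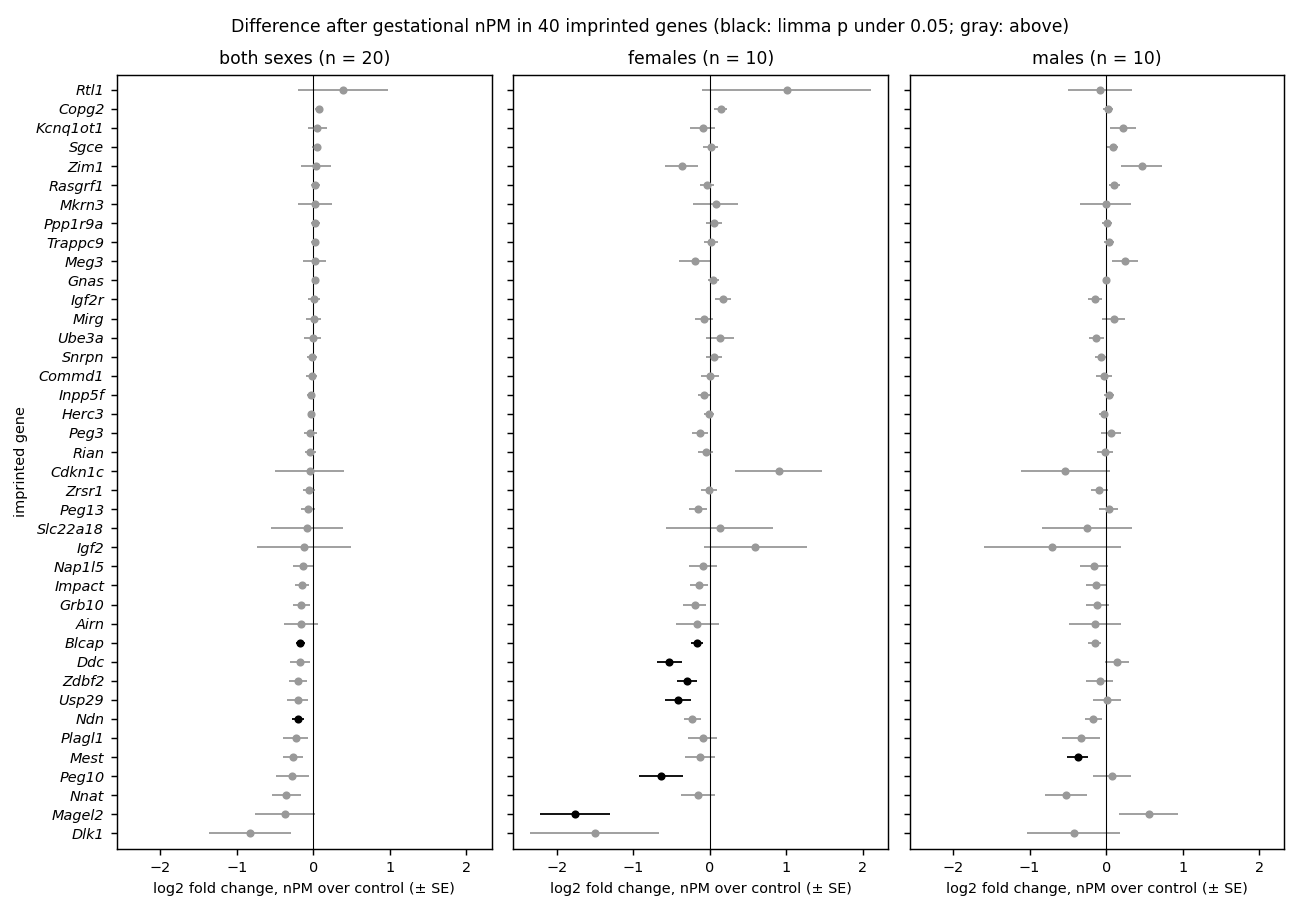
Log2 fold change of nPM over control (x axis; bars are ± 1 SE of the limma fit) for the 40 imprinted genes tested, in both sexes, in females and in males. Black marks p under 0.05. The females have 6 such genes, all to the left of 0, with Magel2 farthest at -1.76, and the males have 1, Mest at -0.37.

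The Snrpn domain of chromosome 7 holds the genes lost in Prader-Willi syndrome and, with Ube3a, the gene lost in Angelman syndrome. Magel2 (ENSMUSG00000056972.6, chr7:62377010-62381640, + strand, 1 exon) encodes a partner of ubiquitin ligases that is best known from the hypothalamus. It had 2.40, 1.80, 6.08, 2.06 and 1.51 CPM in control females and 1.19, 0.572, 0.694, 0.274 and 0.985 CPM in nPM females. All 5 nPM females lay below all 5 control females, and control female 3 stood above the other controls. The means were 2.77 ± 1.88 and 0.743 ± 0.357 CPM (SD, n = 5), from 34 to 195 and 5 to 36 counts. The fitted log2 fold change was -1.76 (SE 0.458, limma p = 0.00219, exact permutation p = 0.00794), which is 3.39-fold lower. That permutation p is the smallest that 5 against 5 can give, and by limma p Magel2 ranked 8 of all genes tested. Its counts were low, so each value carries counting error of its own.

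Magel2 was the only member whose nPM and control females did not overlap in either direction, where 0.172% of all genes had every nPM female lower and 0.177% every one higher. In males no member had such a gap (0.293% of all genes lower, 0.369% higher). Control males had 1.12, 2.14, 0.923, 3.42 and 1.34 CPM and nPM males 4.27, 2.11, 1.31, 2.87 and 2.36 CPM, and these overlapped (log2 fold change 0.56, SE 0.385, limma p = 0.173, permutation p = 0.238). The difference between the sexes in the nPM effect was itself past the threshold, at 2.33 on the log2 scale (SE 0.648, limma p = 0.00178, permutation p = 0.00268 over all regroupings of exposure within sex). It ranked 13 by limma p. The permutation p of an interaction assumes no nPM difference in either sex, so a difference in 1 sex alone can lower it.

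The summed levels of the marker lists overlapped between control and nPM females, for some lists only through control female 5. Their part in the result was not tested beyond the values given here. The 8 hypothalamic marker genes summed to 0.89 to 2.06 CPM in control females and to 0.668 to 1.87 CPM in nPM females, and Sim1 was at 0 in 13 of the 20 libraries. The 10 choroid plexus genes summed to 47.5 to 509.9 CPM in control females and to 56.5 to 8374 CPM in nPM females, and the 6 interneuron genes to 492 to 697 CPM and 507 to 596 CPM. For the interneuron genes, control females 1 to 4 (654 to 697 CPM) lay above all nPM females, and control female 5 (492 CPM) lay below them. The thalamic list was at 324 to 333 CPM in control females 1 to 4 and at 222 CPM in control female 5. In nPM females it was at 237 to 309 CPM. Ptpn4 alone made 184 to 255 CPM of this sum in control females and 177 to 227 CPM in nPM females. Of the 6 thalamic genes 2 were higher in nPM females (median log2 fold change -0.16). Of the interneuron genes 0 of 6 were higher in nPM females (median log2 fold change -0.17, none with p under 0.05), and of the choroid plexus genes 9 of 10 were (median 0.97, none with p under 0.05). Meningeal fibroblast genes were higher in 7 of 8 cases (median 0.45, 1 with p under 0.05). Endothelial genes were higher in 6 of 6 (median 0.15, 1 with p under 0.05). Without the 8 choroid-plexus-rich libraries, the Magel2 difference in females was -2.25 with a p of 0.0037 and the interaction 4.01 with a p of 0.000354. Only 2 animals were then left in each male group. They were control males 1 and 3, the lowest control males for Magel2, and nPM males 1 and 4, the highest nPM males. The larger interaction thus depends on which males remained. The libraries dropped include nPM females 1 and 5, the highest nPM females for Magel2. Leaving out each library in turn, the difference in females stayed between -1.97 and -1.42. Its p was over 0.005 without nPM female 2, 3 or 4, and highest without nPM female 4, at 0.00652.

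Ndn, which encodes necdin, a protein of the same MAGE family that acts in neuronal differentiation, lies a short way upstream (ENSMUSG00000033585.5, chr7:62346569-62350262, + strand). Ndn stood at 119, 111, 124, 107 and 84.4 CPM in control females and at 91.5, 98.2, 104, 81.3 and 84.05 CPM in nPM females. Control males had 176, 122, 126, 144 and 140.2 CPM and nPM males 134, 129, 107, 147 and 113 CPM. The nPM values were on the low side in both sexes and overlapped the controls in both. With both sexes the log2 fold change was -0.20 (SE 0.0790, limma p = 0.0173, permutation p = 0.0265), or 1.15-fold lower. Within a sex it was -0.23 in females (limma p = 0.0561, permutation p = 0.0714) and -0.17 in males (limma p = 0.155, permutation p = 0.214). Without the choroid-plexus-rich libraries it was -0.16 with a p of 0.182. In the both-sex comparison of all libraries, 0 of 6 neocortical markers (median log2 fold change -0.24) and 0 of 6 interneuron markers (median -0.07) were higher, none with p under 0.05. Of the dentate gyrus markers 4 of 4 were higher (median 0.19), of CA1 3 of 4 (0.15) and of endothelial cells 4 of 6 (0.06). Each of these 3 lists had 1 marker with p under 0.05. The same values stand beside Blcap. Their part in either result was not tested. The ratio of Ndn to Magel2 within a library needs no scaling between libraries, but it uses the Magel2 counts already given. Its log2 mean per length was 5.80 ± 0.644 in control females and 7.38 ± 0.751 in nPM females (SD, n = 5), with no overlap, against 6.78 ± 0.811 and 6.02 ± 0.504 in males, with overlap.

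Snrpn itself was the member with the highest level per length. Snrpn stood at 289, 266, 243, 304 and 237 CPM in control females and at 233, 290.3, 295, 307 and 254 CPM in nPM females. Control males had 346, 289.5, 352, 292 and 285 CPM and nPM males 306, 317, 289.7, 297 and 274 CPM. Groups overlapped in both sexes and the test was not passed (log2 fold change -0.02, SE 0.0623, limma p = 0.801, permutation p = 0.809, both sexes). Ube3a, a ubiquitin ligase expressed from the maternal copy in neurons, ranged from 265 to 321 CPM in control females and from 355 to 515 CPM in control males. nPM males were at 341 to 367 CPM, and nPM females at 268 to 292 CPM apart from nPM female 4 at 568 CPM. It overlaps the noncoding Snhg14 on the opposite strand. Mkrn3, known as a brake on puberty, was low in every library, from 8 to 55 counts, and its both-sex log2 fold change was 0.03.

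**Figure D3:**
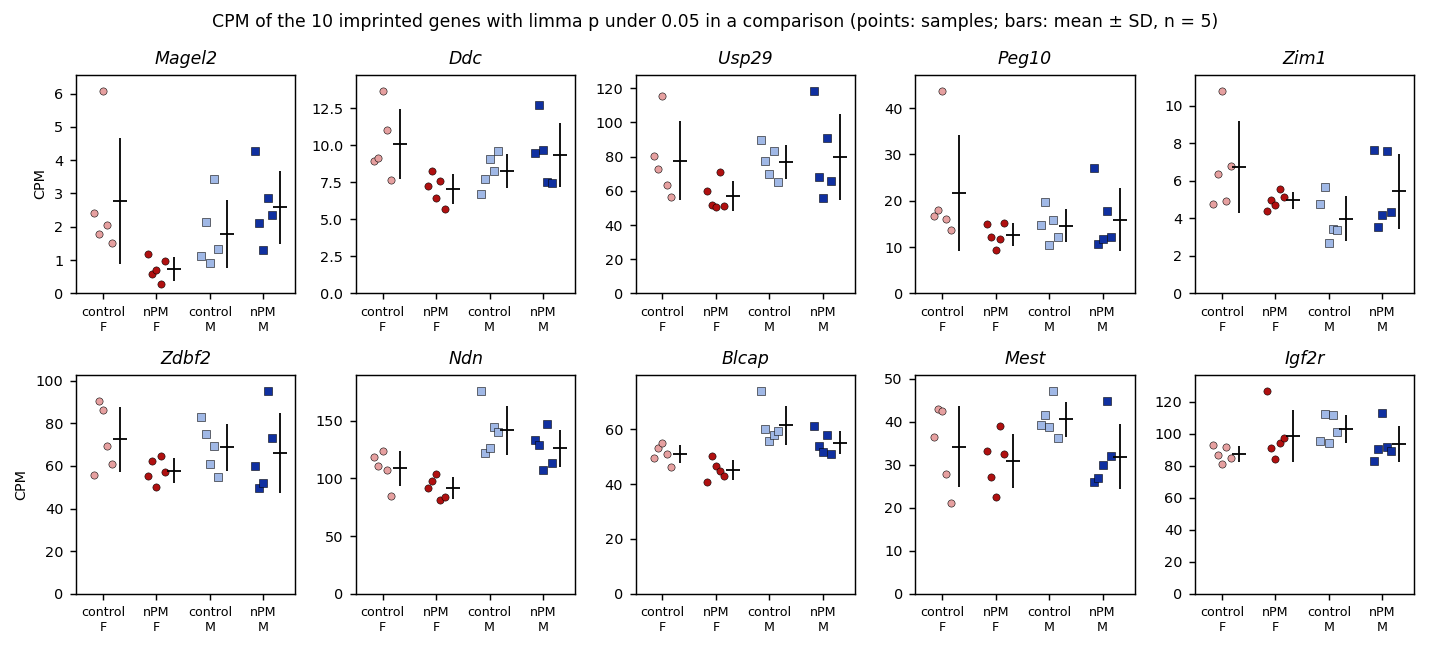
CPM (linear axis from 0) of the 10 imprinted genes with limma p under 0.05 in at least 1 of the both-sex, male, female or interaction comparisons, 1 point per animal, with mean ± SD (n = 5) beside each group. In the Magel2 panel all nPM females lie below all control females. Control female 3 is the highest control female for Magel2, Ddc, Usp29, Peg10, Zim1, Ndn and Blcap.

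The Peg3 domain, also on chromosome 7, holds a zinc finger gene, Peg3, and Usp29, of the deubiquitinase family, which start back to back and are both expressed from the paternal copy. Zim1 is a maternally expressed zinc finger gene beside them. Peg3 stood at 536, 504, 637, 475 and 447 CPM in control females and at 427, 440.3, 442, 549 and 489.7 CPM in nPM females. Control males had 621, 487, 433, 463 and 414 CPM and nPM males 657, 453, 433, 513 and 474 CPM. No group stood apart (log2 fold change -0.04, SE 0.0871, limma p = 0.665, permutation p = 0.685, both sexes). Usp29 gave 80.1, 72.7, 116, 63.2 and 56.6 CPM in control females and 59.8, 51.9, 50.4, 70.8 and 51.2 CPM in nPM females, so 4 of the 5 nPM females were below 60 CPM while control female 3 was far above the rest. The difference in females was 1.33-fold lower (log2 fold change -0.41, SE 0.171, limma p = 0.0333, permutation p = 0.0635). Males had 89.8, 77.2, 69.6, 83.2 and 65.2 CPM without and 119, 67.9, 55.97, 90.7 and 65.9 CPM with nPM, a log2 fold change of 0.01 (limma p = 0.953, permutation p = 0.968), and the interaction did not pass (0.44, limma p = 0.116, permutation p = 0.174). In females the p of Usp29 was over 0.05 when any 1 of control female 1 or 3 or nPM female 2, 3 or 5 was left out, and it was highest without control female 3, at 0.0768 with a log2 fold change of -0.26. Usp29 overlaps Zim3 and other annotated genes.

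Zim1 differed between the sexes in its nPM effect. Zim1 stood at 4.74, 6.34, 10.8, 4.92 and 6.76 CPM in control females and at 4.36, 4.96, 4.69, 5.58 and 5.15 CPM in nPM females. Control males had 4.77, 5.64, 2.66, 3.45 and 3.35 CPM and nPM males 7.66, 3.52, 4.18, 7.57 and 4.33 CPM. nPM females fell within the range of control females or just below it, and nPM males 1 and 4, the latter with high Trh, stood above all control males. Neither sex passed alone (females -0.36, limma p = 0.119, permutation p = 0.103; males 0.46, limma p = 0.109, permutation p = 0.206), while the interaction was 0.84 (SE 0.364, limma p = 0.0314, permutation p = 0.0412). That p was over 0.05 when any 1 of control female 3, nPM female 1, control males 3 to 5 or nPM males 1 and 4 was left out, and was highest without nPM male 1, at 0.0710.

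Grb10 and Ddc share a domain on chromosome 11. Ddc encodes the decarboxylase that makes dopamine and serotonin (ENSMUSG00000020182.16, chr11:11814101-11898144, - strand), and Grb10 an adaptor that damps the insulin receptor. Ddc had 8.93, 9.13, 13.7, 10.99 and 7.65 CPM in control females and 7.24, 8.25, 6.42, 7.56 and 5.68 CPM in nPM females. All but 1 of the nPM females were below all control females, with nPM female 2 above control female 5. The means were 10.1 ± 2.33 and 7.03 ± 1.001 CPM (SD, n = 5), a 1.44-fold lower level (log2 fold change -0.53, SE 0.167, limma p = 0.00794, permutation p = 0.0159). Control males had 6.71, 7.68, 9.08, 8.28 and 9.61 CPM and nPM males 9.46, 12.7, 9.64, 7.49 and 7.41 CPM, with overlap (0.14, limma p = 0.387, permutation p = 0.397). The interaction was 0.68 (SE 0.236, limma p = 0.00888, permutation p = 0.0159), and without the choroid-plexus-rich libraries it was 0.54 with a p of 0.122. Grb10 stood at 49.8, 40.4, 53.4, 36.3 and 30.3 CPM in control females and at 37.4, 38.8, 28.4, 35.6 and 40.2 CPM in nPM females. Control males had 50.9, 47.5, 41.5, 54.9 and 40.9 CPM and nPM males 57.6, 37.6, 39.2, 52.5 and 33.7 CPM. Grb10 did not pass in any comparison (log2 fold change -0.16, SE 0.110, limma p = 0.163, permutation p = 0.195, both sexes).

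In the Nnat domain of chromosome 2, Nnat, which encodes the small membrane protein neuronatin, lies within Blcap on the opposite strand. Blcap (ENSMUSG00000067787.10, chr2:157556362-157571274, - strand), first described in bladder cancer, had the smallest both-sex p of the members. Blcap stood at 49.7, 53.2, 55.2, 51.000 and 46.4 CPM in control females and at 40.7, 50.3, 46.8, 44.8 and 42.9 CPM in nPM females. Control males had 74.02, 60.1, 55.9, 57.8 and 59.3 CPM and nPM males 61.1, 54.05, 51.6, 58.1 and 51.1 CPM. In females 4 of the 5 nPM animals were below all or all but 1 of the controls, and in males control male 1 was far above the others. The both-sex log2 fold change was -0.17 (SE 0.0554, limma p = 0.00656, permutation p = 0.00526), or 1.12-fold lower, with -0.17 in females (limma p = 0.0479, permutation p = 0.0397) and -0.15 in males (limma p = 0.103, permutation p = 0.103). Without the choroid-plexus-rich libraries it was -0.11 with a p of 0.192. The female p rose over 0.05 when any 1 of control females 1 to 4 or nPM females 1, 4 or 5 was left out, to at most 0.124 without nPM female 1. Nnat stood at 57.4, 60.3, 48.6, 50.2 and 53.6 CPM in control females and at 44.3, 44.2, 67.7, 24.7 and 69.7 CPM in nPM females. Control males had 190.0, 73.6, 53.4, 73.8 and 94.8 CPM and nPM males 54.1, 65.5, 67.9, 72.9 and 47.5 CPM. Control male 1 alone was far above the other males for Nnat, and the both-sex test was not passed (log2 fold change -0.36, SE 0.191, limma p = 0.0761, permutation p = 0.107). It was passed when control male 3, nPM female 3 or nPM female 5 was left out, with p down to 0.0317. Since the strand setting of the counting was not given in the sources used here, reads of Nnat and Blcap may not be fully told apart.

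Mest (ENSMUSG00000051855.15, chr6:30723547-30748465, + strand), a hydrolase-like gene that is expressed from the paternal copy, was the only member to pass in males. Mest stood at 36.5, 42.9, 42.6, 27.9 and 21.2 CPM in control females and at 33.1, 27.2, 22.5, 38.9 and 32.5 CPM in nPM females. Control males had 39.3, 41.5, 38.9, 47.2 and 36.3 CPM and nPM males 25.98, 26.8, 29.9, 44.8 and 32.01 CPM. All nPM males but nPM male 4 lay below all 5 control males. The male means were 40.6 ± 4.11 and 31.9 ± 7.59 CPM (SD, n = 5), 1.29-fold lower (log2 fold change -0.37, SE 0.136, limma p = 0.0180, permutation p = 0.0556), and the exact permutation p was 0.0556. Without nPM male 4, the library with high Trh, the male value was -0.50, with a limma p of 0.000258. That was the strongest of the fits that left out 1 male each. The others ran down to -0.31 and up to a limma p of 0.0474. Of 6 neocortical markers 0 were higher in nPM males (median log2 fold change -0.38, 1 with p under 0.05). Their sum was 139 to 199.9 CPM in control males and 105 to 172 CPM in nPM males. Whether these reads came from carried-over cortex or from the hippocampus was not tested. Of 8 meningeal markers 0 were higher (median -0.29). Of 4 CA1 markers 3 were higher (median 0.31, 2 with p under 0.05). Their part in the Mest result was not tested. Females overlapped (-0.13, limma p = 0.534, permutation p = 0.595), and the interaction did not pass (-0.23, limma p = 0.380, permutation p = 0.413). Without the choroid-plexus-rich libraries, which leaves 2 animals in each male group, the male value was -0.20 with a p of 0.472. Copg2, a coatomer subunit that overlaps the end of Mest on the other strand, was level between the male groups. Copg2 stood at 98.3, 88.1, 95.4, 112 and 89.9 CPM in control females and at 97.9, 105, 112, 118 and 96.001 CPM in nPM females. Control males had 111, 108, 122, 112 and 112 CPM and nPM males 118, 125, 121, 108 and 103 CPM. Its male log2 fold change was 0.02 (limma p = 0.765, permutation p = 0.746).

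The Peg10 domain of chromosome 6 joins Peg10, a coding gene derived from a retrotransposon, with Sgce (a sarcoglycan), the synaptic scaffold gene Ppp1r9a and Calcr. Peg10 and Sgce start 99 bases apart on opposite strands. Peg10 stood at 16.7, 18.03, 43.8, 16.03 and 13.7 CPM in control females and at 15.04, 12.1, 9.37, 11.7 and 15.3 CPM in nPM females. Control males had 14.7, 19.8, 10.4, 15.9 and 12.2 CPM and nPM males 26.99, 10.7, 11.6, 17.8 and 12.2 CPM. Control female 3 was far above the other control females, and nPM females 2, 3 and 4 were below all controls of their sex. The female log2 fold change was -0.64 (SE 0.288, limma p = 0.0455, permutation p = 0.0397), and the interaction did not pass (0.73, limma p = 0.0950, permutation p = 0.133). Its p was over 0.05 without control female 2 (0.0549) and without nPM female 2 (0.0758), 3 (0.116) or 4 (0.0777), and without control female 3 the value was -0.34. Sgce was at 22.1 to 25.5 CPM in control and 19.9 to 26.7 CPM in nPM females. Ppp1r9a stood at 429, 427, 461, 424 and 429 CPM in control females and at 459, 425, 409.6, 577 and 379 CPM in nPM females. Control males had 467, 430.0, 501, 421 and 432 CPM and nPM males 421, 441, 448, 477 and 479 CPM. Ppp1r9a was nearly level over all groups (log2 fold change 0.02, SE 0.0586, limma p = 0.685, permutation p = 0.726, both sexes). Calcr reached 1.56 CPM in control female 3 and at most 0.464 CPM elsewhere, and 7 libraries had 0 counts.

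Zdbf2, a zinc finger gene of chromosome 1 known for paternal expression in the brain, was the other member to pass in females. Zdbf2 stood at 55.6, 90.6, 86.1, 69.6 and 60.9 CPM in control females and at 55.1, 62.2, 50.2, 64.6 and 56.996 CPM in nPM females. Control males had 82.97, 75.1, 61.1, 69.6 and 54.96 CPM and nPM males 60.01, 49.5, 51.9, 95.2 and 72.9 CPM. The nPM females spread over a narrow range that overlapped the lower controls (log2 fold change -0.30, SE 0.133, limma p = 0.0449, permutation p = 0.0952). Its p was over 0.05 when any 1 of control females 2 to 4 or nPM females 1, 2, 3 or 5 was left out, and highest without control female 2, at 0.120.

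Igf2r takes up and destroys the growth factor IGF2, and its silent paternal copy is kept off by the noncoding Airn, which runs across it on the other strand. Igf2r stood at 93.03, 86.5, 80.95, 91.4 and 85.1 CPM in control females and at 127, 90.8, 84.1, 94.2 and 97.3 CPM in nPM females. Control males had 95.3, 112, 94.2, 112 and 101 CPM and nPM males 82.9, 90.5, 113, 91.7 and 89.5 CPM. nPM female 1 alone was above all other females, and 4 of the 5 nPM males were below all control males. The signs differed between the sexes, 0.18 in females (limma p = 0.115, permutation p = 0.143) and -0.14 in males (limma p = 0.125, permutation p = 0.151), and the interaction was -0.31 (SE 0.137, limma p = 0.0369, permutation p = 0.0339). Leaving out any 1 of 10 libraries took that p over 0.05, and it was highest, at 0.0714 with a value of -0.22, without nPM female 1, a choroid-plexus-rich library. The others were control females 2, 3 and 5, control males 2 and 4 and nPM males 1, 2, 4 and 5. Without all 8 choroid-plexus-rich libraries it was -0.17 with a p of 0.229. Airn stood at 0.614 to 2.05 CPM over the 20 libraries.

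Igf2, the fetal growth factor, and its maternal partner H19 were measured at very different depth. Igf2 stood at 26.4, 18.4, 13.8, 21.6 and 23.2 CPM in control females and at 144, 18.98, 12.9, 6.84 and 69.9 CPM in nPM females. Control males had 31.3, 122, 5.17, 148 and 62.1 CPM and nPM males 9.73, 35.5, 137, 17.2 and 23.5 CPM. Control females were close together while the other 3 groups each spread widely, and the test was not passed (log2 fold change -0.12, SE 0.612, limma p = 0.842, permutation p = 0.893, both sexes). H19 had 0 to 29 counts per library and was not fitted. Cdkn1c, a cell cycle inhibitor of the neighboring Kcnq1ot1 domain, had a like pattern, with 2.18, 1.68, 1.19, 1.81 and 1.74 CPM in control females and 12.99, 1.53, 1.25, 2.03 and 4.40 CPM in nPM females. Control males had 3.36, 10.002, 2.22, 14.2 and 6.17 CPM of Cdkn1c and nPM males 1.56, 5.90, 11.995, 4.86 and 2.69 CPM.

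Both genes followed the choroid plexus list, a relation looked at after their values had been seen. Over the 20 libraries, Igf2 and the summed choroid plexus genes had a Pearson r of 0.896 and a Spearman rho of 0.859 on the log2 scale (permutation p = 1e-05 for each, the smallest that the permutations can give, adjusted p = 6e-05 over 6 relations). Leaving out the 2 libraries farthest from the median gave r = 0.856. In males alone r was 0.908 (permutation p = 0.00027, adjusted p = 0.00054; rho 0.952, permutation p = 0.00011, adjusted p = 0.00033), and 0.815 without the 2 farthest. In females r was 0.869 (permutation p = 0.00197, adjusted p = 0.00236; rho 0.624, permutation p = 0.0612, adjusted p = 0.0734) but 0.388 without the 2 farthest, so there it rests on those libraries.

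For Cdkn1c the values were r = 0.859 (permutation p = 2e-05, adjusted p = 6e-05) and rho = 0.750 (permutation p = 0.00023, adjusted p = 0.00042) over the 20 libraries, and r = 0.803 without the 2 farthest. In males r was 0.869 (permutation p = 0.00195, adjusted p = 0.00236; rho 0.939, permutation p = 0.00028, adjusted p = 0.00042), and 0.783 without the 2 farthest. In females r was 0.855 (permutation p = 0.00378, adjusted p = 0.00378; rho 0.455, permutation p = 0.193, adjusted p = 0.193) but 0.129 without the 2 farthest. Choroid plexus epithelium and the meninges are known to express Igf2 in the adult brain, from both copies.

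**Figure D4:**
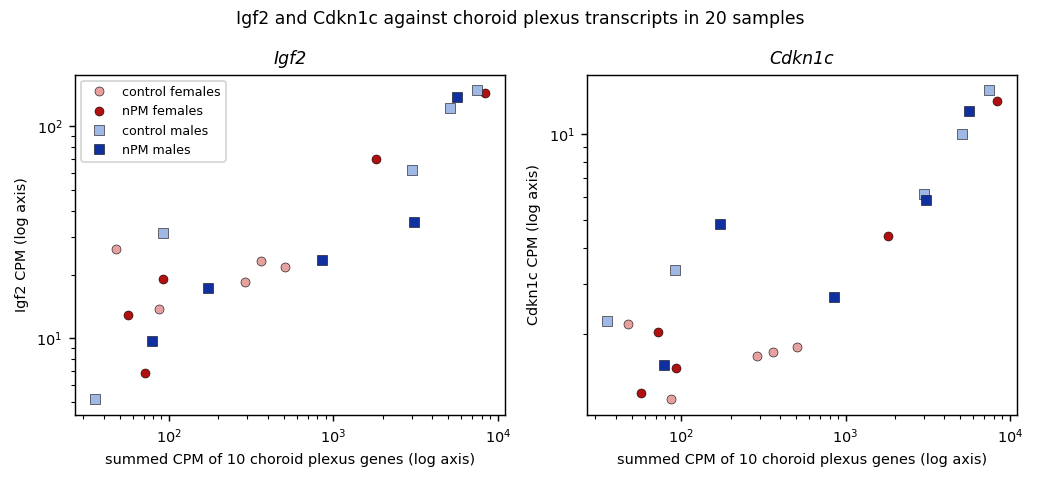
Igf2 (left) and Cdkn1c (right) in CPM against the summed CPM of 10 choroid plexus genes, all on log axes, 1 point per library colored by group. The 4 libraries highest for the choroid plexus genes (control males 2 and 4, nPM male 3 and nPM female 1) are also the 4 highest for both genes, and Igf2 reaches 148 CPM in control male 4.

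Kcnq1ot1, the long antisense RNA that silences its domain on the paternal copy, did not pass with nPM. Kcnq1ot1 stood at 298, 364, 483, 305 and 501 CPM in control females and at 307, 327, 303, 446 and 406 CPM in nPM females. Control males had 258, 216, 189, 126 and 228 CPM and nPM males 233, 188, 235, 227 and 275 CPM. Its values separated by sex rather than by exposure (log2 fold change 0.05, SE 0.129, limma p = 0.683, permutation p = 0.715, both sexes). Slc22a18, an organic cation transporter of the domain, had 1 to 44 counts per library.

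The Dlk1-Dio3 domain of chromosome 12 transcribes a chain of noncoding RNAs from the maternal copy, Meg3, Rian and Mirg, and from the paternal copy the Notch-related ligand Dlk1, the retrotransposon-derived Rtl1 and the deiodinase Dio3, which inactivates thyroid hormone. Meg3 stood at 1615, 1656, 2646, 1229 and 2259 CPM in control females and at 1070.1, 1693, 1704, 1514 and 2057 CPM in nPM females. Control males had 1107, 749, 1044, 607 and 776 CPM and nPM males 1177, 981, 718, 1066 and 1084 CPM. nPM and control overlapped in both sexes (log2 fold change 0.02, SE 0.150, limma p = 0.894, permutation p = 0.904, both sexes). Rian ranged from 553 to 860.3 CPM and Mirg from 40.8 to 93.1 CPM over the 20 libraries, with both-sex log2 fold changes of -0.04 and 0.00. Dlk1 was at 0.576, 1.26, 9.02, 0.529 and 1.16 CPM in control females and 1.09, 0.286, 0.659, 0.164 and 0.361 CPM in nPM females, with control female 3 on top, and missed the threshold (log2 fold change -1.50, SE 0.841, limma p = 0.0985, permutation p = 0.0873). Single animals also topped the other paternal genes. Rtl1 reached 5.26 CPM in nPM female 4 (96 counts) and at most 0.905 CPM in the other 19 libraries, and Dio3 reached 4.59 CPM in control male 1 (123 counts) and 1.69 CPM or less elsewhere.

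The leads of 3 further domains did not pass with nPM. Nap1l5 stood at 229.9, 195, 165, 172 and 120.3 CPM in control females and at 109, 165, 158, 207 and 181 CPM in nPM females. Control males had 339, 217, 255, 228 and 214 CPM and nPM males 333, 204, 168, 259.6 and 179.6 CPM. Nap1l5 lies within Herc3, a ubiquitin ligase gene, on the other strand (log2 fold change -0.13, SE 0.137, limma p = 0.346, permutation p = 0.394). Peg13 stood at 265, 266, 209, 229 and 189.6 CPM in control females and at 161, 227, 223, 199 and 224 CPM in nPM females. Control males had 168, 229.6, 242, 229 and 212 CPM and nPM males 263, 185, 190.4, 241 and 229 CPM. Peg13 lies in an intron of Trappc9, a gene of vesicle transport (log2 fold change -0.07, SE 0.0893, limma p = 0.462, permutation p = 0.490). Zrsr1 stood at 47.99, 45.8, 46.5, 44.6 and 45.9 CPM in control females and at 40.4, 45.5, 42.2, 60.6 and 42.6 CPM in nPM females. Control males had 67.6, 46.3, 51.03, 47.2 and 45.1 CPM and nPM males 52.8, 47.9, 42.5, 51.1 and 44.5 CPM. Zrsr1, a splicing factor gene that arose by retrotransposition, lies within Commd1 on the other strand (log2 fold change -0.06, SE 0.0748, limma p = 0.443, permutation p = 0.516). Of the single-gene domains, Plagl1, a zinc finger gene of growth control, had a both-sex log2 fold change of -0.23 (limma p = 0.184, permutation p = 0.227) and Impact -0.14 (limma p = 0.127, permutation p = 0.156). Gnas (0.02), Rasgrf1 (0.03) and the lipid phosphatase gene Inpp5f (-0.03) lay close to 0 with standard errors of 0.0374, 0.0609 and 0.0516. In all, 33 of the 43 members overlap another annotated gene.

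Ratios between partners of 1 domain were described for 16 pairs, since a ratio within a library needs no scaling between libraries (the plot of partner ratios). Ndn over Magel2 in females was the only ratio of these whose nPM and control values did not overlap. It uses the same Magel2 counts as the result above and is not a separate observation. The steadiest ratios were Trappc9 over Peg13, with a log2 mean of -2.28 ± 0.197 (SD, n = 20), Peg3 over Usp29 at 3.23 ± 0.228 and Snrpn over Ube3a at 3.02 ± 0.229. The widest were Dlk1 over Meg3 at -8.56 ± 1.53 and Cdkn1c over Kcnq1ot1 at -1.01 ± 1.53. Per length, Igf2 was 76.3-fold above H19 and Igf2r 31.8-fold above Airn.

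**Figure D5:**
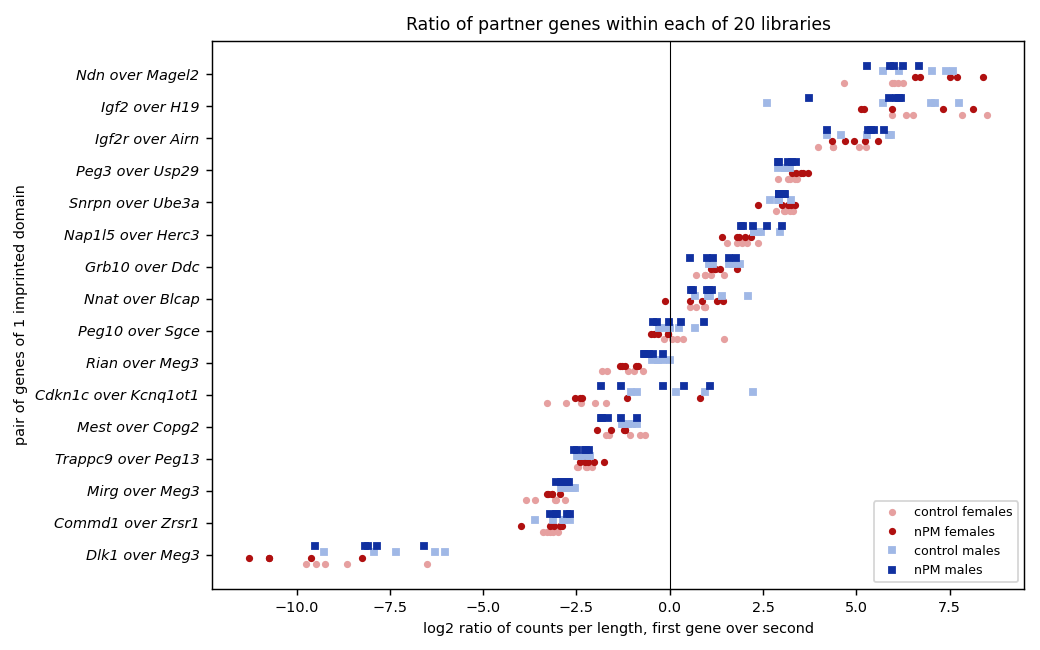
Log2 ratio of counts per exon length (x axis, 0.5 counts added) of 16 pairs of genes that share an imprinted domain, 1 point per library in 4 rows of color per pair. In the pair Ndn over Magel2 the nPM females lie to the right of all control females, with means of 7.38 and 5.80.

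Sex was the larger contrast, for imprinted genes as for the rest. Between males and females, whose age and EdU injection also differed, 18 of the 40 members passed p under 0.05, against 48.4% of all genes, and 10 passed p under 0.005, against 31.1%. Of the 18, 12 were higher in males (23.3% of all genes) and 6 lower (25.1%). The members were thus near the background. Kcnq1ot1 was the only member with no overlap between the sexes, lower in every male, as were 3.15% of all genes (1.67% were higher in every male). Of the noncoding RNAs named above, 3 were lower in males, Meg3 by 1.86-fold (log2 -0.89, adjusted p = 0.000111), Kcnq1ot1 by 1.72-fold (log2 -0.78, adjusted p = 9.01e-05) and Mirg by 1.37-fold (log2 -0.46, adjusted p = 0.00111), while Rian (-0.09, adjusted p = 0.347), Airn (-0.32, adjusted p = 0.261) and Peg13 (0.00, adjusted p = 0.995) did not pass. Malat1 moved the same way, and its part in this was not tested. Higher in males were Ndn (0.41, adjusted p = 0.000333), Blcap (0.28, adjusted p = 0.000525), Commd1 (0.33, adjusted p = 0.00179), Impact (0.38, adjusted p = 0.00207), Nap1l5 (0.49, adjusted p = 0.00708) and Copg2 (0.17, adjusted p = 0.0123), each value a log2 difference of males over females. Rasgrf1 was lower (-0.22, adjusted p = 0.00608).

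Single libraries led many members at once. Control male 1 was the highest of its group for 20 of the 40 members (29.0% of all genes), nPM female 4 for 17 (31.4%), control female 3 for 16 (24.8%) and nPM male 1 for 15 (22.4%). In control female 3 these included Dlk1 (7.15 times the next control female), Rtl1 (5.92 times), Magel2 (2.53 times), Peg10 (2.43 times), Zim1 (1.60 times) and Usp29 (1.44 times). Its hypothalamic, striatal and thalamic lists (1.03, 54.5 and 326 CPM) were inside the range of the other control females. Its dentate gyrus, interneuron and oligodendrocyte lists (273, 697 and 3045 CPM) were the highest of control females. For the interneuron list, control females 1 and 2 were close to it, at 694 and 695 CPM. Its CA1, astrocyte and meningeal lists (233, 532 and 25.3 CPM) were the lowest. Single markers of 1 list went different ways there. Tcf7l2 (10.7 CPM, the others 3.95 to 6.72), Gad2 (261 CPM, the others 160 to 209) and Slc32a1 (39.2 CPM, the others 24.6 to 30.8) were the highest. The interneuron markers Pvalb (17.9 CPM, the others 22.0 to 33.5) and Sst (34.8 CPM, the others 43.1 to 54.0) were the lowest. The thalamic Slc17a6 (42.1 CPM) and Rgs16 (3.90 CPM) were inside the range of the other control females. Their part was not tested. nPM female 4 had the fewest counts of all libraries.

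Beyond the members, 2 related lists were examined. Of 50 other imprinted genes 41 were tested, and 0 passed p under 0.05 with both sexes and 0 in males. In females 1 was lower, Ano1, a calcium-activated chloride channel (log2 fold change -0.99, SE 0.404). The interaction was passed by Ano1 (1.43, SE 0.589) and by the potassium channel gene Kcnq1 (-1.62, SE 0.641). Kcnq1 had a mean of only 0.258 CPM and lies across Kcnq1ot1 on the opposite strand. Of 20 genes that place or keep imprints, such as Dnmt1, Zfp57 and Trim28, 19 were tested and 0 passed p under 0.05 in the both-sex, male, female or interaction comparison.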

How the data were processed

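RNA-seq of the right hippocampus of 20 mice was used. Per the labels, saline-perfused brains were dissected, and total RNA was depleted of ribosomal RNA (Ribo-Zero Gold) and sequenced on an Illumina HiSeq instrument. The deposited counts are whole-number reads per gene that the authors made with FastQC, Trimmomatic, HISAT2 (mm10) and featureCounts 1.5.0-p3 on Gencode M11, with no normalization. The strand and multi-mapping settings were not given in the sources used here. A deposited column of the authors' mean RPKM was used only to check gene lengths.

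The 45 listed genes were matched by symbol, with 50 as the lowest summed count. The members and the lists were chosen with earlier results of these data known. Library totals were 19092067 to 38663408. TMM factors were taken over the genes that passed the filter named next, and anew over the libraries of each fit. Genes passing filterByExpr over the 4 groups (19797 of 48709) were fitted with limma-voom (limma 3.58.1, edgeR 4.0.16, R 4.3.3). The thresholds were the study's p under 0.005 and, beside it, p under 0.05, with Benjamini-Hochberg adjustment over all genes tested. The fits were nPM with sex as a covariate, nPM within each sex, the interaction of both over the 4 groups, and sex with exposure as a covariate. Exact permutation tests, two-sided, used all regroupings of mean log2 CPM within sex. For the interaction their null was no nPM difference in either sex. Prior counts were 0.5. Described in full were members with limma p under 0.05 for nPM or the interaction and, in each domain with 2 or more members, the one with the highest level per length. Cdkn1c, Dlk1, Dio3, Rtl1 and Ube3a were described further after their values were seen. The fits were tested on simulated data. The alternatives were edgeR's quasi-likelihood test, DESeq2 1.42.0, RLE scaling, no filter, sample quality weights, a replicate block, age, 1 fit of 4 groups, another pseudocount for ratios and leaving out each library. A fit without 8 libraries rich in choroid plexus transcripts (over 600 CPM) was added after the data were seen. No 2 libraries agreed within sampling noise, and all counted as separate replicates. Promoters were read from RefSeq windows (GRCm38.p6). The number of counts sets the precision of each value, and a count of 0 allows up to 3 counts, both for counting error only.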

Additional observations from a re-analysis of the deposited data

Results flagged for a closer look

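Among 160 groups of 5 animals examined, 10 held an animal that stood apart from the other 4 by Dixon's criterion, and chance alone is set to do this in about 1 group in 20. In control male 1 these were Ube3a (515 CPM, the others 355 to 367), Impact (481 CPM, the others 299.7 to 340.2) and Blcap (74.0 CPM, the others 55.9 to 60.1). In control female 3 they were Peg10 (43.8 CPM, the others 13.7 to 18.03) and Ppp1r9a (461 CPM, the others 424 to 429). In nPM female 4, the library with the fewest counts, they were Ube3a (568 CPM, the others 268 to 292) and Rtl1 (5.26 CPM, the others 0.0985 to 0.298). Herc3 was low in nPM female 1 (202 CPM, the others 223 to 225), a library rich in choroid plexus and striatal markers. In nPM males, Airn was high in animal 1 (1.70 CPM, the others 0.774 to 0.847) and Sgce low in animal 5 (19.8 CPM, the others 22.6 to 23.3).

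The nPM difference of Magel2 departed between the sexes, by 2.33 on the log2 scale, with a limma p of 0.00178 and a permutation p of 0.00268. It was lower after nPM in females and not past the threshold in males, and its adjusted p over all genes was 0.987.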

How the results depend on the processing

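Over the other tests, scalings, filters, weights, blocks and covariates, 303 values kept direction and side of the threshold, 10 no longer passed it, 1 newly passed it, 6 counts moved by over 1.5 times and 5 values changed sign. Without the choroid-plexus-rich libraries these numbers were 26, 11, 0, 3 and 6. Members with p under 0.005 numbered 2 for both sexes under the replicate block, where 20 of all 19797 genes passed. By DESeq2 they numbered 2 for females (55 of all genes) and 2 for the interaction (89). Without the choroid-plexus-rich libraries they numbered 1 for males (23 of all genes). At p under 0.05 they numbered 2 for males by edgeR (845 of all genes). With age as a covariate they numbered 2 for males (834) and 2 for females (310). Without the choroid-plexus-rich libraries they numbered 0 for both sexes (211) and 3 for males (644). The samples of 1 number were not paired, since correlations of their deviations ran from -0.36 to 0.16. Under the replicate block Peg10 (p of 0.0588) and Blcap (0.0536) in females no longer passed p under 0.05, and no other call was lost. With age as a covariate Usp29 (0.0528), Zdbf2 (0.0603), Peg10 (0.0580) and Blcap (0.0778) in females did not pass it. Nor did Zdbf2 in 1 fit of the 4 groups (0.0753), Blcap in females with quality weights (0.105) or no filter (0.0550), or the interaction of Zim1 with quality weights (0.0604). Without the choroid-plexus-rich libraries Usp29 (-0.40, p of 0.0803), Zdbf2 (-0.28, 0.117) and Blcap (-0.10, 0.280) in females did not pass, against -0.41, -0.30 and -0.17 with all libraries.

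Leaving out 1 library each gave, at p under 0.005 and under 0.05, 0 to 2 and 2 to 4 members for both sexes, 0 to 1 and 1 to 3 for males, 0 to 2 and 3 to 7 for females, 1 to 2 and 2 to 5 for the interaction, and 9 to 12 and 16 to 19 for sex. Of all 19797 genes, those with p under 0.05 numbered 338 to 738 for both sexes and 563 to 1032 for males. They numbered 249 to 803 for females, 562 to 1015 for the interaction and 8969 to 9778 for sex. Both-sex values of members that did not pass then ran across 0 for Igf2 (-0.51 to 0.16), Igf2r (-0.051 to 0.033), Kcnq1ot1 (-0.033 to 0.11), Meg3 (-0.048 to 0.097), Peg3 (-0.093 to 0.00355), Ppp1r9a (-0.015 to 0.049) and Snrpn (-0.039 to 0.0081). Signs of both-sex values also turned for Igf2 (0.27 by edgeR, 0.28 by DESeq2), Meg3 (-0.000573 by DESeq2) and Igf2r (-0.026 with quality weights, -0.00409 with age). Without the choroid-plexus-rich libraries they turned for Snrpn (0.029), Meg3 (-0.075), Kcnq1ot1 (-0.049), Igf2r (-0.018), Peg13 (0.053) and Nap1l5 (0.016). The cause was not tested for any of these.

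Over all genes, the number with p under 0.005 was 28 for both sexes, 41 for males, 18 for females and 43 for the interaction. It was 43, 113, 55 and 89 by DESeq2, and 71, 104, 75 and 149 without the filter. With quality weights it was 53 for both sexes and 44 for females, by edgeR 66 for the interaction, and without the choroid-plexus-rich libraries 10, 23, 29 and 90. Leaving out 1 library took it to 17 (control female 1), 45 (control female 5) or 47 (nPM female 4) for both sexes, and to 23 (nPM male 5) or 78 (nPM male 4) for males. For females it became 10 (nPM female 5), 33 (nPM female 1) or 48 (nPM female 4), and for the interaction 24 (control female 3) or 77 (control female 1). An adjusted p under 0.05 was reached by 1 gene in males and 1 in females by DESeq2, and by 1 in the interaction by edgeR or, with limma, without control male 5. Depth limits Magel2, Calcr, H19, Dio3, Rtl1, Mkrn3 and Slc22a18, whose libraries held few counts.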
